A study of Bos taurus with 50 samples.

Results

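The comparison described here is that of endometrium from cows with a functional corpus luteum (CL) and endometrium from cows that had not resumed ovarian cycles, at week 5 after calving. It was defined by the sample labels: 10 libraries from CycW5 cows, in which a CL was present and progesterone (P4) circulated at the biopsy, against 12 libraries from NoCycW5 cows, in which the ovaries carried a large follicle without a CL and P4 had stayed below detection since calving. These 22 libraries are part of 50 in the series. A further 4 libraries of the same week came from CycNoP4 cows, in which P4 had been high in the preceding week but was low at the biopsy. All cows were lactating, primiparous Holstein-Friesian × Jersey crosses. The biopsy was taken from the uterine horn next to the CL or, without a CL, next to the largest follicle. The day of the estrous cycle at the biopsy is not given in the sources used here, and the labels do not link libraries to cows, so that P values measure the spread between libraries, which may be technical in part.

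The endometrium is lined by a luminal epithelium from which tubular glands extend into the stroma, and it responds to the ovarian steroids throughout the estrous cycle. Before ovulation, estradiol from the follicle acts through its receptor to drive growth of the tissue. After ovulation, P4 from the CL changes the epithelium from growth to transport and secretion, so that the uterine lumen fills with glucose, amino acids, lipids and proteins that feed an early embryo. The same tissue releases prostaglandin F2α in response to oxytocin at the end of the cycle, which ends the life of the CL.

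Abundance is given in CPM, the reads of a gene scaled to the same total of counted reads in each library, with that total adjusted by the trimmed mean of M values (TMM). Differences were tested in edgeR over all 15483 genes that passed the filter on low counts. The fit took its estimate of the spread from the 22 compared libraries together with 10 CycW5 and 11 NoCycW5 libraries of week 9. A log2 fold change is CycW5 minus NoCycW5, and a gene with a Benjamini-Hochberg adjusted P (BH P) of 0.05 or less was taken as a differentially expressed gene (DEG). Errors after ± are SD over libraries, with n = 10 for CycW5 and n = 12 for NoCycW5. CPM compares a gene between libraries and not the genes with each other, because it is not corrected for gene length.

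The reads counted on genes per library were 25131393 to 32813237 in the CycW5 group, 24235270 to 32446681 in the NoCycW5 group and 28307781 to 32715330 in the CycNoP4 group, of which 4.95 to 10.7% fell on the top 10 genes. CycW5 library 57 stood apart from the other CycW5 libraries. Over the 835 genes that were DEG and at least 2-fold higher in CycW5, its median log2 difference from the mean of the NoCycW5 libraries was 0.14, against 0.73 to 1.87 in the other CycW5 libraries and -0.21 to 0.3 in the NoCycW5 libraries. It had the lowest value of the CycW5 group in 543 of these genes (65.0%). Over the DEG at least 2-fold lower, library 57 lay at -0.37, outside the -0.19 to 0.13 of the NoCycW5 libraries. The other CycW5 libraries lay at -1.31 to -0.74. Both sets of genes were selected with these libraries, so the separation of the groups is built in. Leaving out library 57 raised the number of DEG from 4119 to 4959.

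Markers of the cell types of the tissue were available in small number, because only genes that the study itself listed carry a symbol here, and 8 of the 11 marker lists had no member. The 3 markers of epithelium were all higher in CycW5, with log2 fold changes of 0.71 for EPCAM, 0.78 for KRT8 and 1.0 for GRHL2. Their summed abundance was 310 to 871 CPM in CycW5 (456 in library 57) and 220 to 422 CPM in NoCycW5. EPCAM lost significance in 3 of the 22 fits that left out a single library (BH P of up to 0.0848, without CycW5 library 70). PDGFRA, the only marker of stroma, had a log2 fold change of -0.07 and was not a DEG, with 280 to 710 and 315 to 670 CPM in CycW5 and NoCycW5. The 3 markers of endothelium, VWF, ROBO4 and CDH5, were lower in CycW5 by 0.8, 0.65 and 0.43 on the log2 scale, and their sums were 212 to 425 against 299 to 710 CPM. In a biopsy, fewer cells of a type and less RNA per cell cannot be told apart, and the part of these marker differences in the results that follow was not tested.

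**Figure D1:**
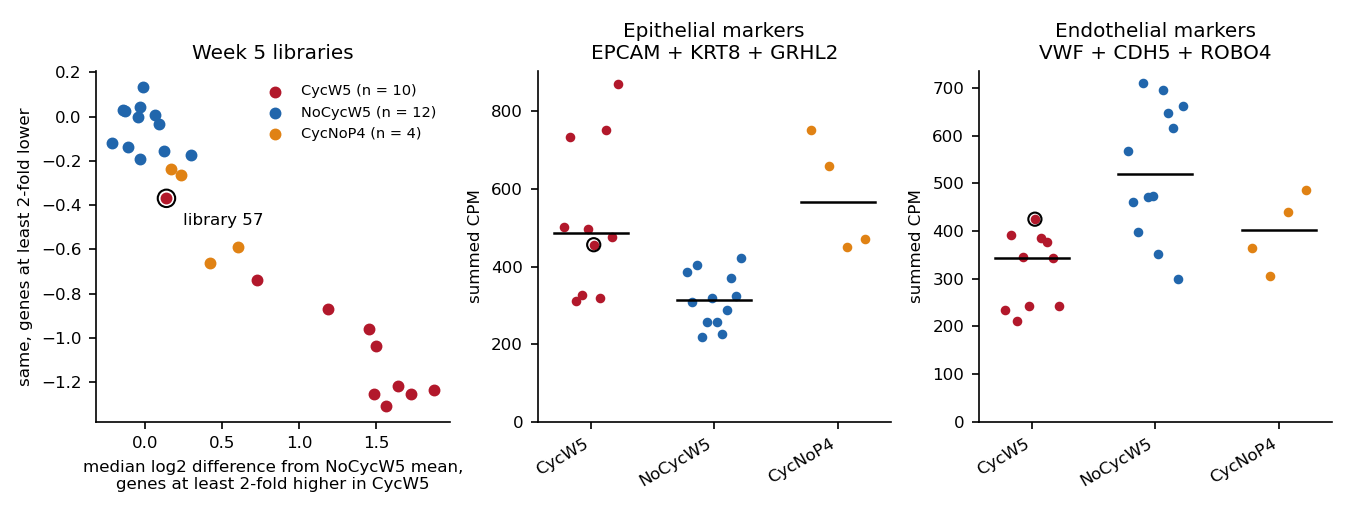
Position of the week 5 libraries (left, each point 1 library, median log2 difference from the NoCycW5 mean over the genes at least 2-fold higher on the horizontal axis and over those at least 2-fold lower on the vertical axis) and summed CPM of the epithelial and endothelial markers by group (middle and right; bar: median; circled: library 57). CycW5 library 57 lies at 0.14 on the horizontal axis, within the range of the NoCycW5 libraries, whereas the other CycW5 libraries lie at 0.73 or above. On the vertical axis library 57 lies at -0.37, outside the NoCycW5 range of -0.19 to 0.13. The genes of both axes were selected with these libraries, so the separation of the groups is built in.

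Of the 15483 genes tested, 26.6% were DEG, 15.2% higher and 11.4% lower in CycW5, and 7.31% were DEG that differed at least 2-fold. Genes with a symbol are a selected set, as 57.4% of the 2225 tested were DEG (42.3% higher, 15.1% lower), and their median log2 fold change was 0.23, against -0.02 over all genes. Among the 1542 genes with a symbol that the study did not list for this comparison, 44.2% were DEG (31.7% higher, 12.5% lower) and the median was 0.1. The counts in the lists of functions below are to be read against these shares, and the direction of members that the study listed for this comparison is not independent evidence. The other genes with a symbol were listed by the study for other comparisons. Among those is the change between weeks in NoCycW5 cows, which also uses NoCycW5 endometrium of the week compared here. These genes are therefore a selected set too, and their direction is not fully independent either. Genes named besides those selected by a fixed rule were chosen after their values were seen, as examples of their list.

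In 49 of all the genes tested (0.316%), the CycW5 libraries did not overlap with the NoCycW5 libraries, 39 of them higher in CycW5 (0.252%) and 10 lower (0.0646%). SGK2, a serine/threonine kinase of the family regulated by serum and glucocorticoids, was the only gene of this kind among those with the smallest BH P. It had 1.71 to 10.8 CPM (median 6.92) in CycW5 and 0.118 to 1.58 CPM (median 0.834) in NoCycW5, and all 10 CycW5 values lay above the highest NoCycW5 value (log2 fold change 2.88 with a standard error of 0.32, BH P = 7.08e-08). The tight junction genes CLDN1 and CLDN7, the epithelial GTPase gene RAB25 and the sterol synthesis genes MSMO1 and CYP51A1 were others without overlap. RASA3, which encodes a GTPase activating protein for Ras, did not overlap in the opposite direction, with 58.6 to 126 CPM (median 70.95) in CycW5 and 128 to 217 CPM (median 166) in NoCycW5 (log2 fold change -1.09, BH P = 0.000654).

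By BH P, SGK2 was followed among the genes higher in CycW5 by ENPP5, F2RL1, SUSD2 and TPCN1, among others. SUSD2, a cell surface protein with a sushi domain, had 4.902 to 181 CPM (median 76.9) in CycW5 and 1.92 to 9.69 CPM (median 3.08) in NoCycW5 (log2 fold change 4.59 with a standard error of 0.52, BH P = 7.15e-08). F2RL1, the protease-activated receptor PAR2, had 18.5 ± 9.08 CPM in CycW5 and 3.82 ± 1.29 CPM in NoCycW5 (log2 fold change 2.27, BH P = 7.15e-08). In each of these genes at least 1 CycW5 library lay within the NoCycW5 range. ENPP5, of the ectonucleotide pyrophosphatase family, had 111 ± 59.1 CPM in CycW5 and 17.5 ± 7.44 CPM in NoCycW5 (log2 fold change 2.66, BH P = 7.15e-08). TPCN1, a cation channel of endosomes and lysosomes, had 85.3 ± 35.3 CPM in CycW5 and 20.8 ± 2.99 CPM in NoCycW5 (log2 fold change 2.04, BH P = 7.15e-08).

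Among the genes higher in CycW5, the largest log2 fold changes at a mean of at least 1 CPM in CycW5 were those of PRG3, CAMK2B, FMO2 and GJB5, all of which were of low abundance in NoCycW5. PRG3, a relative of the eosinophil major basic protein, had 594 reads in all over the CycW5 libraries and 4 over the NoCycW5 libraries, at 0 to 5.38 CPM (median 1.91) in CycW5 (log2 fold change 7.02, BH P = 5.27e-07). Its log2 fold change was 5.28 in limma-voom, below the 6.37 of CAMK2B in the same fit. CAMK2B, a subunit of the calcium/calmodulin-dependent kinase, had 0.0987 to 176.6 CPM (median 49.7) in CycW5 and 0.0389 to 2.21 CPM (median 0.342) in NoCycW5 (log2 fold change 6.85, BH P = 1.61e-07). FMO2, a flavin-containing monooxygenase, had 0 to 95.03 CPM (median 19.3) in CycW5 and 0.0405 to 1.54 CPM (median 0.121) in NoCycW5 (log2 fold change 6.77, BH P = 5.38e-07). Its difference lost significance in limma-voom (BH P = 0.0639), and without NoCycW5 library 14 its log2 fold change was 7.49.

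The genes lower in CycW5 that came first by BH P changed less. SEPTIN10, a GTPase of the septin cytoskeleton, had 41.4 to 69.9 CPM (median 52.8) in CycW5 and 64.8 to 95.6 CPM (median 82.8) in NoCycW5 (log2 fold change -0.56 with a standard error of 0.08, BH P = 1.92e-06). CADM1, an immunoglobulin-like adhesion molecule, had 7.91 to 24.6 CPM (median 13.47) in CycW5 and 18.4 to 34.04 CPM (median 27.7) in NoCycW5 (log2 fold change -0.94, BH P = 2.13e-05), and library 57 was the highest of the CycW5 libraries. AOX1, an aldehyde oxidase, had 58.3 to 325 CPM (median 113) in CycW5 and 173 to 1025 CPM (median 423) in NoCycW5 (log2 fold change -1.87, BH P = 2.22e-05), but -0.91 (BH P = 0.059) when the CycNoP4 libraries were counted as CycW5. The Wnt effector TCF7L2, the ERK5 kinase kinase MAP2K5 and the gene TUSC1 were lower too, with log2 fold changes of -0.8, -0.45 and -0.75 (BH P = 3.33e-05, 3.94e-05 and 2.69e-05).

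The size of the largest decreases depended on single libraries and on the libraries taken as cyclic. CLCA1, a secreted regulator of calcium-activated chloride channels, had 0.0771 to 2.16 CPM (median 0.332) in CycW5 and 0.0662 to 109.7 CPM (median 0.419) in NoCycW5 (log2 fold change -4.01, BH P = 0.00992), and without NoCycW5 library 48 the log2 fold change was -1.16 (BH P = 0.345). RHCG, an ammonia transporter, had 0.1198 to 5.49 CPM (median 0.442) in CycW5 and 0.4797 to 59.2 CPM (median 6.62) in NoCycW5 (log2 fold change -3.79, BH P = 0.00149), and -4.9 (BH P = 0.000103) without CycW5 library 57. CRHR1, the receptor of corticotropin-releasing hormone, had 0 to 1.88 CPM (median 0.0534) in CycW5 and 0.361 to 3.94 CPM (median 1.93) in NoCycW5 (log2 fold change -2.99, BH P = 0.0246), and -5.3 (BH P = 0.000452) without library 57. For AOX2, the log2 fold change of -3.5 (BH P = 0.0459) lost significance in 15 of the 22 fits that left out a single library, but was -4.37 (BH P = 0.0186) without library 57. With the CycNoP4 libraries counted as CycW5, CLCA1, AOX2 and CRHR1 were not DEG, at -0.03 (BH P = 0.986), -1.74 (BH P = 0.257) and -1.83 (BH P = 0.12). CLCA1 was also not a DEG in the DESeq2 Wald test (-1.07, BH P = 0.234) or in limma-voom (-0.98, BH P = 0.473). With quality weights for libraries, limma-voom gave it -0.97 (BH P = 0.352).

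**Figure D2:**
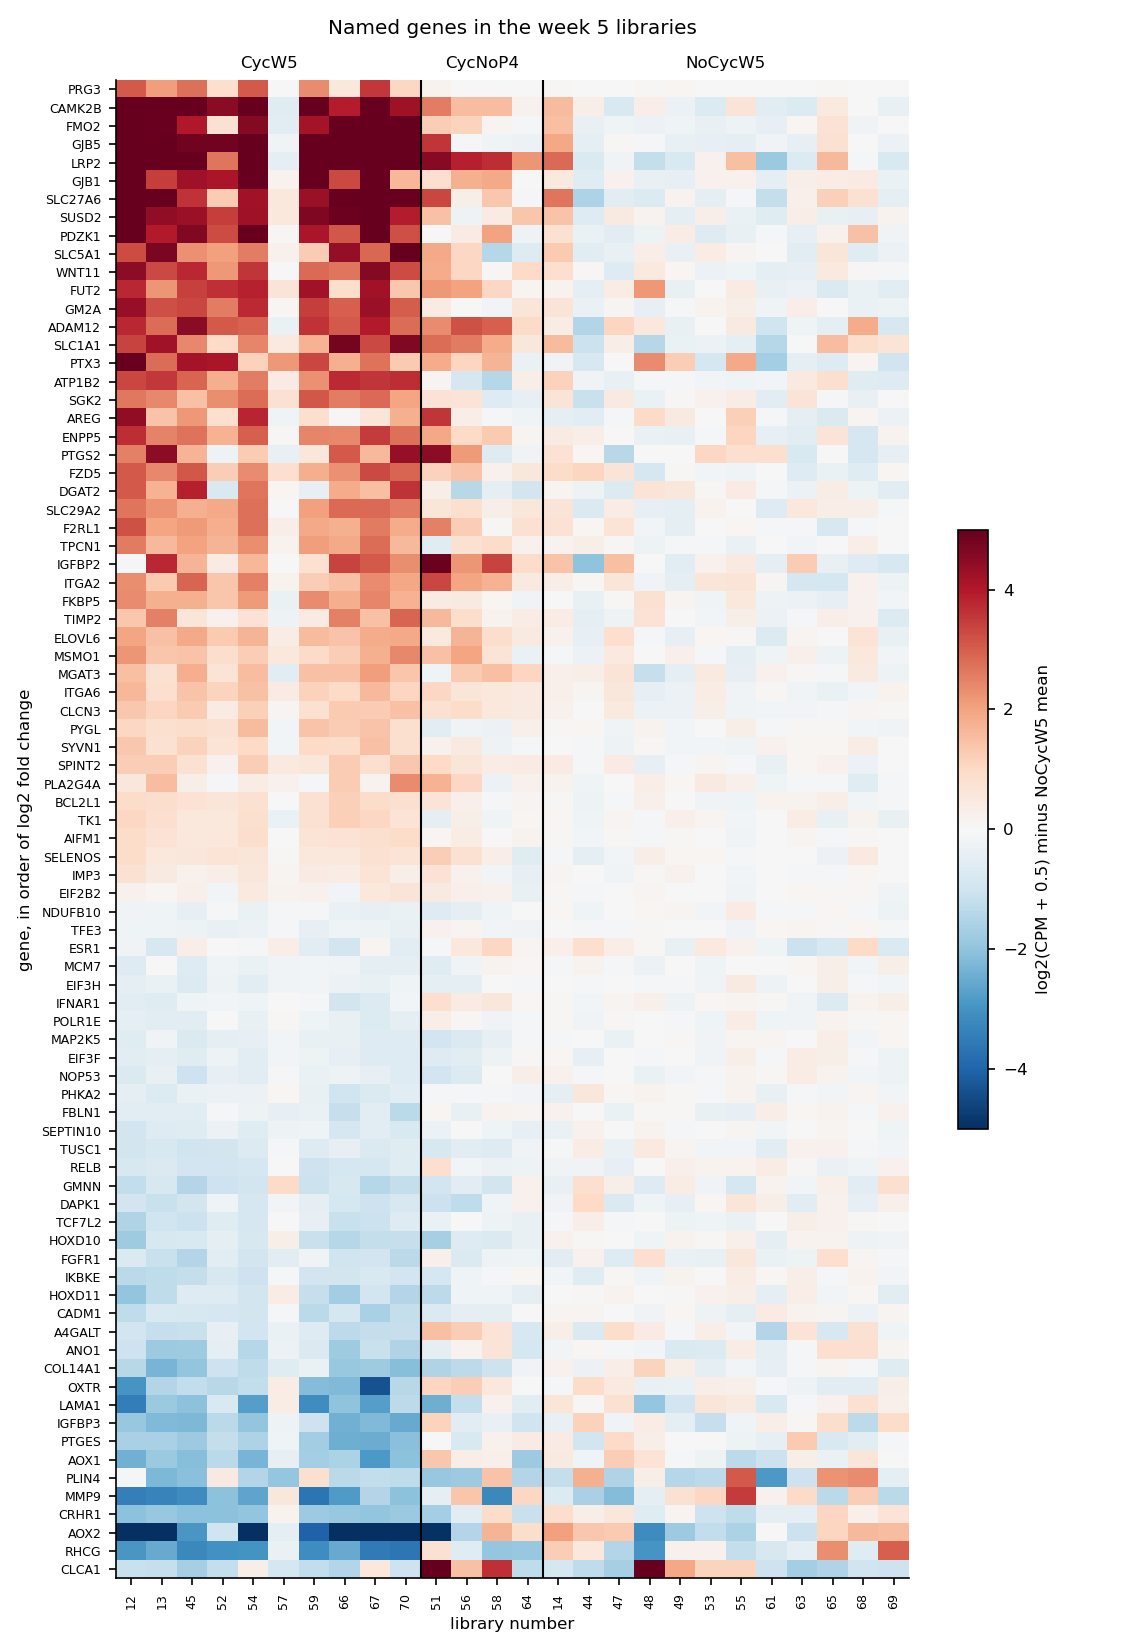
Log2(CPM + 0.5) of the named genes in each week 5 library (columns, grouped as CycW5, CycNoP4 and NoCycW5) relative to the mean of the NoCycW5 libraries, with colours that saturate at 5 log2 units. The column of CycW5 library 57 is paler than the other CycW5 columns in most genes.

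Of the 14 receptor genes for steroid and peptide hormones in the list, 5 had a symbol and were tested, and the P4 receptor was not analysed here. Among the 4 that were not DEG, ESR1, the estrogen receptor α, had 62.01 to 146 CPM (median 107) in CycW5 and 54.3 to 231 CPM (median 128) in NoCycW5 (log2 fold change -0.3 with a standard error of 0.24, BH P = 0.362). OXTR, the oxytocin receptor, had 5.199 to 151 CPM (median 43.02) in CycW5 and 80.3 to 221 CPM (median 111) in NoCycW5, and 9 of the 10 CycW5 libraries lay below the lowest NoCycW5 library while library 57 lay at 151 CPM. Its log2 fold change was -1.44 (standard error 0.69, BH P = 0.117), and it was -1.88 (BH P = 0.0416) without library 57, -1.43 (BH P = 0.00541) in the fit of only the compared libraries and -1.84 (BH P = 0.00863) in limma-voom. However, OXTR was not a DEG in 21 of the 22 fits that left out a single library (BH P of up to 0.18). Over the other settings its log2 fold change ranged from -2.04 to -0.44, with a BH P of up to 0.647.

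In the list for prostaglandin synthesis, breakdown and reception, 7 of the 10 genes tested were higher in CycW5, 2 were lower and 1 was not a DEG (median log2 fold change 1.15). The list joins genes that make prostaglandins with genes that break them down, and it also holds genes of the ALOX and ACSL families. The count therefore gives no direction for prostaglandin synthesis. PTGS2, the inducible cyclooxygenase that commits arachidonic acid to prostaglandins, had 17.5 to 514 CPM (median 72.8) in CycW5 and 8.28 to 47.3 CPM (median 22.8) in NoCycW5 (log2 fold change 2.65 with a standard error of 0.61, BH P = 0.00114). The 2 genes lower in CycW5 act at the ends of the pathway. PTGES, which makes prostaglandin E2 from the product of the cyclooxygenases, had 1.399 to 8.72 CPM (median 2.85) in CycW5 and 5.14 to 26.05 CPM (median 9.997) in NoCycW5 (log2 fold change -1.81 with a standard error of 0.46, BH P = 0.00285), and the difference was -1.11 (BH P = 0.0505) when the CycNoP4 libraries were counted as CycW5. PTGFR, the receptor of prostaglandin F2α, had 0.205 to 9.76 CPM (median 0.646) in CycW5 and 1.41 to 60.98 CPM (median 4.896) in NoCycW5 (log2 fold change -2.72, BH P = 0.026). It was -2.15 (BH P = 0.0733) without NoCycW5 library 55 and -3.51 without CycW5 library 52. PLA2G4A, which frees arachidonic acid from membranes, had 80.2 ± 56.7 CPM in CycW5 and 43.6 ± 8.25 CPM in NoCycW5 (log2 fold change 0.89, BH P = 0.00613), but 0.57 (BH P = 0.0501) without CycW5 library 70. ALOX12, a lipoxygenase, had a log2 fold change of 1.01 (BH P = 0.00901).

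**Figure D3:**
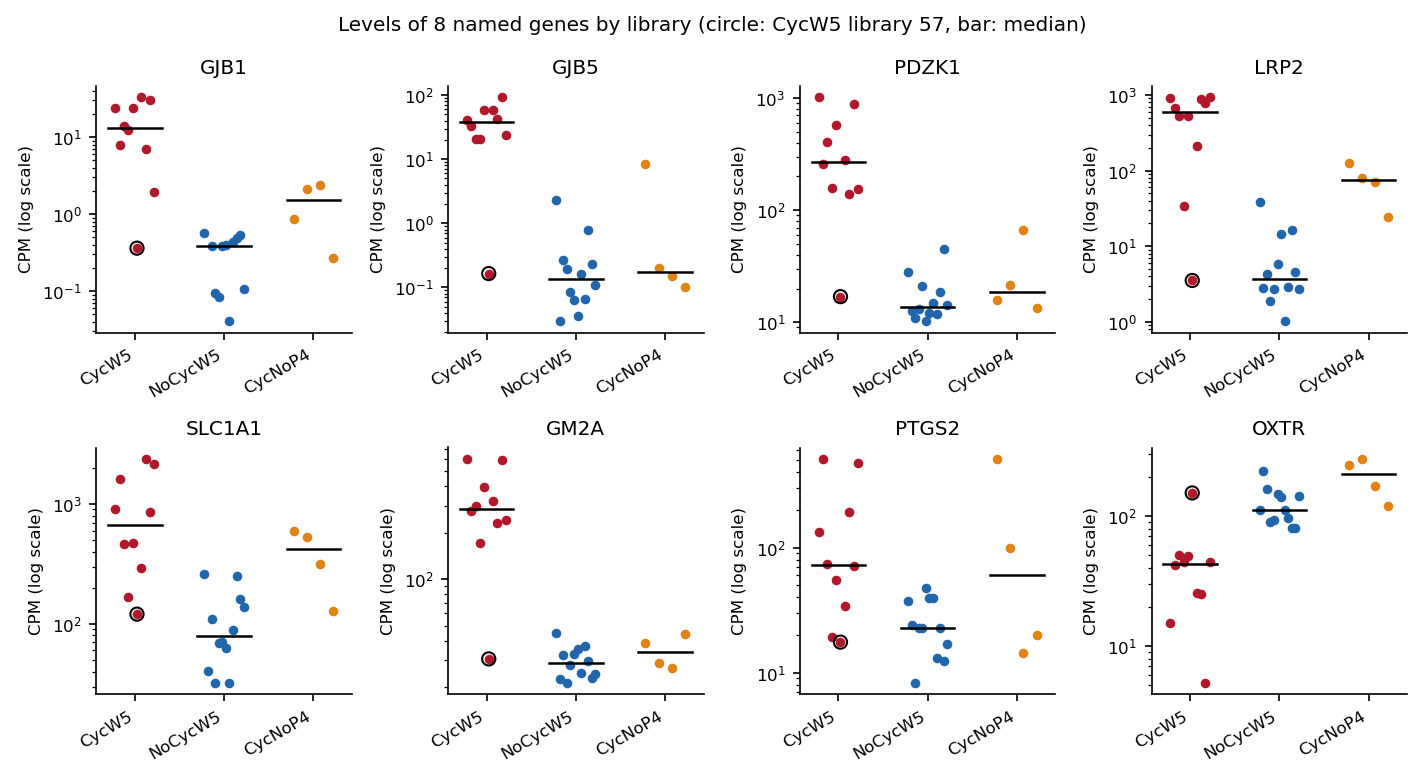
CPM (log scale) of GJB1, GJB5, PDZK1, LRP2, SLC1A1, GM2A, PTGS2 and OXTR in each week 5 library by group (bar: median). In OXTR, 9 of the 10 CycW5 libraries lie below all NoCycW5 libraries, and in GM2A the CycNoP4 libraries lie below the CycW5 median.

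Over all members tested, the functions with the largest median increases were those of the epithelial surface. Of the 28 junction genes tested, 23 were higher and 5 were not DEG (median log2 fold change 1.4), and 11 were listed by the study for this comparison. Among the 17 not listed, 12 were higher and none was lower. Their median was 0.74, below the 1.06 of the cholesterol genes that were not listed. The connexins, which form gap junctions, rose most. GJB5 (ENSBTAG00000005717) had 0.165 to 92.5 CPM (median 37.3) in CycW5 and 0.0295 to 2.31 CPM (median 0.135) in NoCycW5 (log2 fold change 6.73 with a standard error of 0.84, BH P = 2.49e-07). GJB1 had 0.362 to 33.1 CPM (median 13.2) in CycW5 and 0 to 0.5702 CPM (median 0.387) in NoCycW5 (log2 fold change 5.69, BH P = 1.91e-07). Without NoCycW5 library 14 the log2 fold change of GJB5 was 7.71.

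Claudins, the sealing proteins of tight junctions, were higher in 6 of the 7 members tested. CLDN1 had 70.5 to 302 CPM (median 179) in CycW5 and 15.9 to 66.8 CPM (median 42.6) in NoCycW5 (log2 fold change 2.07, BH P = 3.78e-07). CLDN7 had 98.96 to 434 CPM (median 216) in CycW5 and 33.996 to 87.2 CPM (median 58.03) in NoCycW5 (log2 fold change 1.95, BH P = 2.41e-07). CLDN8, CLDN4, CLDN3 and CLDN16 had log2 fold changes of 3.46, 1.94, 1.73 and 1.24, and the BH P of CLDN4 reached 0.187 in other fits. CLDN10, which was not a DEG, had -0.85. The tight junction proteins TJP3 (1.57), OCLN (1.04) and MARVELD2 (0.57) and the desmosomal plakophilins PKP1 (1.61) and PKP3 (0.74) were also higher. The epithelial markers, at log2 fold changes of 0.71 to 1.0, moved in the same direction as the junction and brush border genes. EPCAM belongs to both the marker list and the junction list.

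All 12 genes tested of the apical brush border and of endocytosis at the apical surface were higher, 9 of them listed by the study, with a median of 1.53. The 3 not listed had a median of 1.48. LRP2 (megalin), a scavenger receptor that takes up proteins from the lumen, had 3.52 to 936 CPM (median 597) in CycW5 and 1.01 to 38.5 CPM (median 3.63) in NoCycW5 (log2 fold change 6.07 with a standard error of 0.78, BH P = 3.78e-07), and 6.66 without NoCycW5 library 14. PDZK1, a scaffold that holds transporters at the apical membrane, had 16.9 to 1018 CPM (median 267) in CycW5 and 10.2 to 45.2 CPM (median 13.7) in NoCycW5 (log2 fold change 4.45 with a standard error of 0.56, BH P = 3.07e-07). VIL1, an actin bundler of microvilli, had 1.12 to 31.9 CPM (median 11.1) in CycW5 and 0.202 to 2.08 CPM (median 0.542) in NoCycW5 (log2 fold change 4.54, BH P = 3.1e-06). EZR, which links the membrane to actin, was abundant in both groups, with 263 to 1246 CPM (median 789.7) in CycW5 and 199 to 314 CPM (median 235) in NoCycW5 (log2 fold change 1.59, BH P = 7.14e-07). The remaining members included ANKS4B at 4.79, BAIAP2L1 at 1.44, CLIC5 at 1.44 and PLS1 at 1.09.

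Among transporters of amino acids and nucleosides, 8 of the 10 tested were higher and 2 were not DEG, with a median of 1.02. SLC1A1, a carrier of glutamate and aspartate, had 121 to 2383 CPM (median 664) in CycW5 and 32.2 to 261 CPM (median 79.6) in NoCycW5 (log2 fold change 3.11 with a standard error of 0.49, BH P = 8.16e-06). SLC29A2, a nucleoside transporter, had 10.2 to 75.3 CPM (median 55.8) in CycW5 and 5.85 to 15.97 CPM (median 10.9) in NoCycW5 (log2 fold change 2.33, BH P = 4.84e-07). SLC15A1, the peptide transporter of the gut, had 11.9 ± 3.09 CPM in CycW5 and 6.45 ± 1.87 CPM in NoCycW5 (log2 fold change 0.89, BH P = 0.000677). SLC1A5 and SLC7A2 were not DEG, at -0.57 and 0.07.

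Ion channels, pumps and aquaporins were mixed, with 11 of 26 higher, 5 lower and 10 not DEG, and a median of 0.11. ATP1B2, a subunit of the sodium pump, had 17.3 to 175 CPM (median 118) in CycW5 and 8.09 to 28.9 CPM (median 11.7) in NoCycW5 (log2 fold change 3.0 with a standard error of 0.43, BH P = 2.41e-06). ATP1B1, of the same pump, rose as well (log2 fold change 0.71, BH P = 0.0148). CLCN3, a chloride/proton exchanger of endosomes, had 49.9 ± 13.3 CPM in CycW5 and 23.7 ± 4.199 CPM in NoCycW5 (log2 fold change 1.08, BH P = 1.03e-06). The water channel gene AQP4 rose (log2 fold change 2.44, BH P = 0.000199) and AQP1, known from capillary endothelium, fell (log2 fold change -0.76, BH P = 0.0208). ANO1, a calcium-activated chloride channel, had 6.92 to 20.7 CPM (median 10.2) in CycW5 and 15.3 to 45.2 CPM (median 24.4) in NoCycW5 (log2 fold change -1.21 with a standard error of 0.23, BH P = 0.000169).

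All 16 genes tested of cholesterol synthesis and uptake were higher in CycW5, with a median log2 fold change of 1.04. They include 11 that the study had not listed for this comparison (median 1.06), where 31.7% of such genes with a symbol were higher. These 11 were listed by the study for other comparisons and are not an unselected sample. The cholesterol genes cover the pathway from HMGCS1 (0.96) over PMVK (1.03), MVD (0.84), IDI1 (1.18) and SQLE (1.06) to CYP51A1 (1.47), MSMO1, TM7SF2 (0.94), NSDHL (0.86) and DHCR7 (0.85). MSMO1, a methylsterol oxidase, had 176 to 648 CPM (median 304) in CycW5 and 86.9 to 174 CPM (median 117) in NoCycW5, and the groups did not overlap (log2 fold change 1.49 with a standard error of 0.26, BH P = 5.36e-05). INSIG1, which is itself a target of the sterol-regulated transcription factors and restrains them, had 56.8 ± 26.9 CPM in CycW5 and 24.96 ± 3.99 CPM in NoCycW5 (log2 fold change 1.19, BH P = 0.000111).

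**Figure D4:**
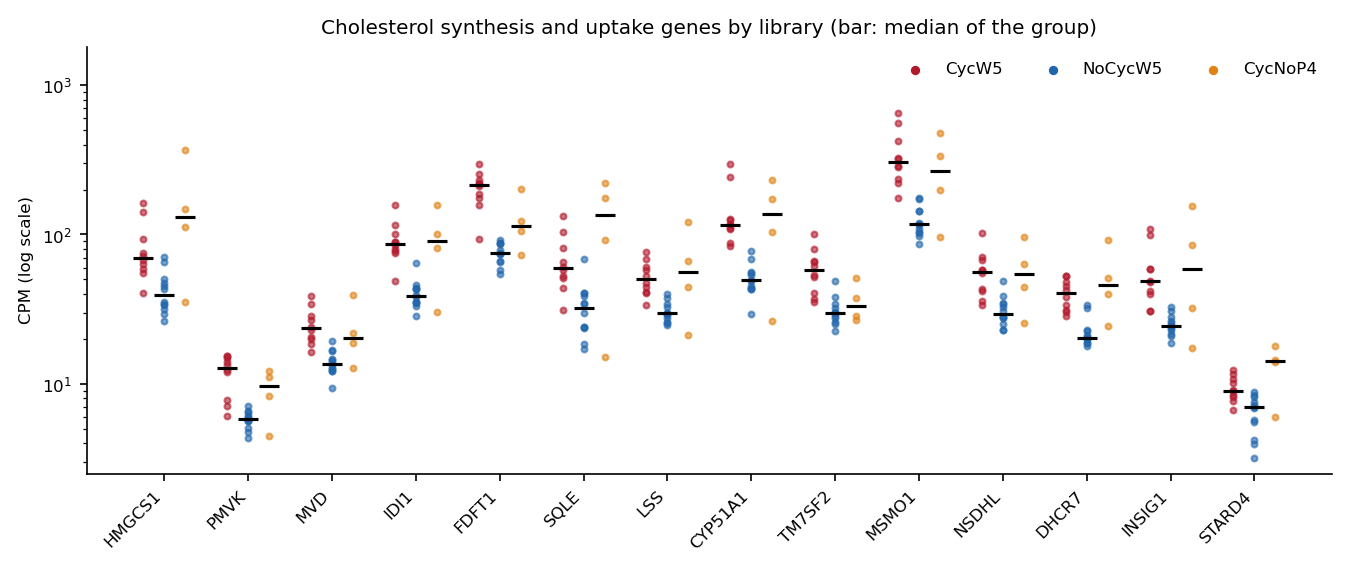
CPM (log scale) of 14 genes of cholesterol synthesis and uptake in each week 5 library (colour: group; bar: median of the group). In all 14 genes the CycW5 median lies above the NoCycW5 median.

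Genes of fatty acid and lipid droplet metabolism were higher in 17 of 23 members, lower in 1 and not DEG in 5, with a median of 0.61. SLC27A6, a fatty acid transport protein, had 1.94 to 165 CPM (median 46.5) in CycW5 and 0.0886 to 10.6 CPM (median 0.91998) in NoCycW5 (log2 fold change 5.05 with a standard error of 0.74, BH P = 2.8e-06), and 5.8 without NoCycW5 library 14. ELOVL6, which elongates saturated fatty acids, had 36.98 to 113 CPM (median 88.9) in CycW5 and 17.6 to 50.6 CPM (median 28.6) in NoCycW5 (log2 fold change 1.56 with a standard error of 0.22, BH P = 1.78e-06). ACACA, the enzyme that opens fatty acid synthesis, had a log2 fold change of 0.99. The enzymes of fatty acid breakdown ECI2 (2.02), CROT (1.27), HSD17B4 (0.79) and ACADVL (0.56) rose as well. DGAT2, which makes triglyceride, had 3.76 to 107 CPM (median 24.5) in CycW5 and 4.002 to 10.97 CPM (median 6.56) in NoCycW5 (log2 fold change 2.46, BH P = 0.000743; BH P = 0.129 in limma-voom). PLIN4, a lipid droplet coat protein, was the member lower in CycW5 (log2 fold change -1.89, BH P = 0.0307), and it lost significance in 9 fits without a single library, with -1.44 (BH P = 0.0913) without NoCycW5 library 55, and in limma-voom (-1.15, BH P = 0.175).

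Genes of glucose and glycogen metabolism were higher in 6 of 12 members and lower in 1, with a median of 0.56. The study listed 4 of the 12 for this comparison. Of the other 8, 2 were higher and 1 lower, with a median of 0.21. SLC5A1, the sodium-coupled glucose transporter, had 1.18 to 72.03 CPM (median 9.103) in CycW5 and 0.4662 to 3.09 CPM (median 0.827) in NoCycW5 (log2 fold change 4.11 with a standard error of 0.63, BH P = 5.04e-06). PYGL, a glycogen phosphorylase, had 69.6 to 227 CPM (median 149) in CycW5 and 65.9 to 92.3 CPM (median 77.01) in NoCycW5 (log2 fold change 1.06 with a standard error of 0.15, BH P = 1.19e-06). GYS1, a glycogen synthase, had 71.5 ± 14.2 CPM in CycW5 and 47.1 ± 6.91 CPM in NoCycW5 (log2 fold change 0.61, BH P = 2.26e-05). The hexokinase gene HK2 was higher as well (log2 fold change 1.38, BH P = 0.0133). PHKA2, a subunit of phosphorylase kinase, was lower (log2 fold change -0.49, BH P = 0.00241). Of the list of nuclear genes for subunits of the respiratory chain, 1 member was tested, NDUFB10 of complex I, at -0.25 (BH P = 0.0116).

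Lysosomal genes were higher in 11 of 19 members, lower in 3 and not DEG in 5, with a median of 0.6. GM2A, the activator protein that presents ganglioside GM2 to its hydrolase, had 30.4 to 603 CPM (median 286) in CycW5 and 21.3 to 44.8 CPM (median 28.6) in NoCycW5 (log2 fold change 3.42 with a standard error of 0.41, BH P = 1.47e-07). MCOLN3 and MCOLN2, cation channels of the endolysosome, had log2 fold changes of 4.42 (BH P = 2.44e-07) and 2.09 (BH P = 9.33e-05). The proton pump subunits went apart, with log2 fold changes of 2.12 for ATP6V0A4 and -1.08 for ATP6V0D2 (BH P = 0.0467). ATP6V0D2 lost significance in 12 of the 22 fits that left out a single library. NPC1, which exports cholesterol from lysosomes, had 0.94 (BH P = 0.00218). TFE3, a transcription factor that controls lysosomal genes, was lower by a small margin (log2 fold change -0.26, BH P = 0.000679).

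Of the 16 genes tested in the list of secreted products of the uterine glands, 8 were higher, 1 was lower and 7 were not DEG, and the median was 1.16. The 8 include DGAT2, described above, which encodes an enzyme of the cell and not a secreted product. They also include IGFBP1, whose CycW5 median was the lower one. PENK, the precursor of the enkephalins, had 39.1 to 3208 CPM (median 530.4) in CycW5 and 5.28 to 353 CPM (median 36.5) in NoCycW5 (log2 fold change 3.7 with a standard error of 0.94, BH P = 0.0032). TIMP2, an inhibitor of matrix metalloproteinases, had 188 to 1705 CPM (median 471) in CycW5 and 142 to 373 CPM (median 219.8) in NoCycW5 (log2 fold change 1.58 with a standard error of 0.37, BH P = 0.00135). DKK1, a secreted inhibitor of Wnt signalling, had 18.2 ± 9.35 CPM in CycW5 and 5.701 ± 0.996 CPM in NoCycW5 (log2 fold change 1.68, BH P = 0.00523), with a BH P of up to 0.159 in other fits. IGFBP1, a binding protein of the insulin-like growth factors, had 0.0386 to 205 CPM (median 0.356) in CycW5 and 0 to 12.9 CPM (median 1.01) in NoCycW5. The fit gave it a log2 fold change of 4.53 (BH P = 0.00499) although its CycW5 median was the lower one, and its BH P reached 0.917 in other fits. SPP1 (osteopontin) and LPL (lipoprotein lipase) were not DEG, at -1.07 and -0.07.

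Factors of the endoplasmic reticulum that fold, export and degrade secretory proteins were higher in 8 of 9 members, with a median of 0.38, but 7 of the 9 were listed by the study. SYVN1, the ubiquitin ligase of this organelle, had 34.6 to 105 CPM (median 74.3) in CycW5 and 31.8 to 48.98 CPM (median 37.9) in NoCycW5 (log2 fold change 0.96 with a standard error of 0.12, BH P = 2.41e-07). SELENOS, another part of its degradation machinery, had 115 ± 17.2 CPM in CycW5 and 76.9 ± 13.95 CPM in NoCycW5 (log2 fold change 0.59, BH P = 1.36e-05). ERN1, the stress sensor IRE1, had 0.68, whereas the sensor ATF6 was not a DEG, at 0.18. SEC31A, a coat protein of transport vesicles, had 0.76.

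Enzymes of carbohydrate chains and mucins were higher in 11 of 23 members and lower in 5, with a median of 0.33, where 42.3% of all genes with a symbol were higher. The study listed 7 of the 23 for this comparison. Of the other 16, 6 were higher and 4 lower, and their median was -0.19. FUT2, which adds the fucose of the H antigen to epithelial glycans, had 1.28 to 20.3 CPM (median 12.6) in CycW5 and 0.177 to 4.61 CPM (median 0.415) in NoCycW5 (log2 fold change 3.62 with a standard error of 0.55, BH P = 5.41e-06), and 4.34 without NoCycW5 library 48. MGAT3, which places the bisecting N-acetylglucosamine, had 17.2 ± 7.02 CPM in CycW5 and 6.75 ± 2.202 CPM in NoCycW5 (log2 fold change 1.35, BH P = 4.73e-05). A4GALT, which makes the globoside Gb3, had 26.5 ± 6.82 CPM in CycW5 and 54.2 ± 23.4 CPM in NoCycW5 (log2 fold change -1.03, BH P = 0.00136), and its difference was -0.28 (BH P = 0.482) when the CycNoP4 libraries were counted as CycW5.

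**Figure D5:**
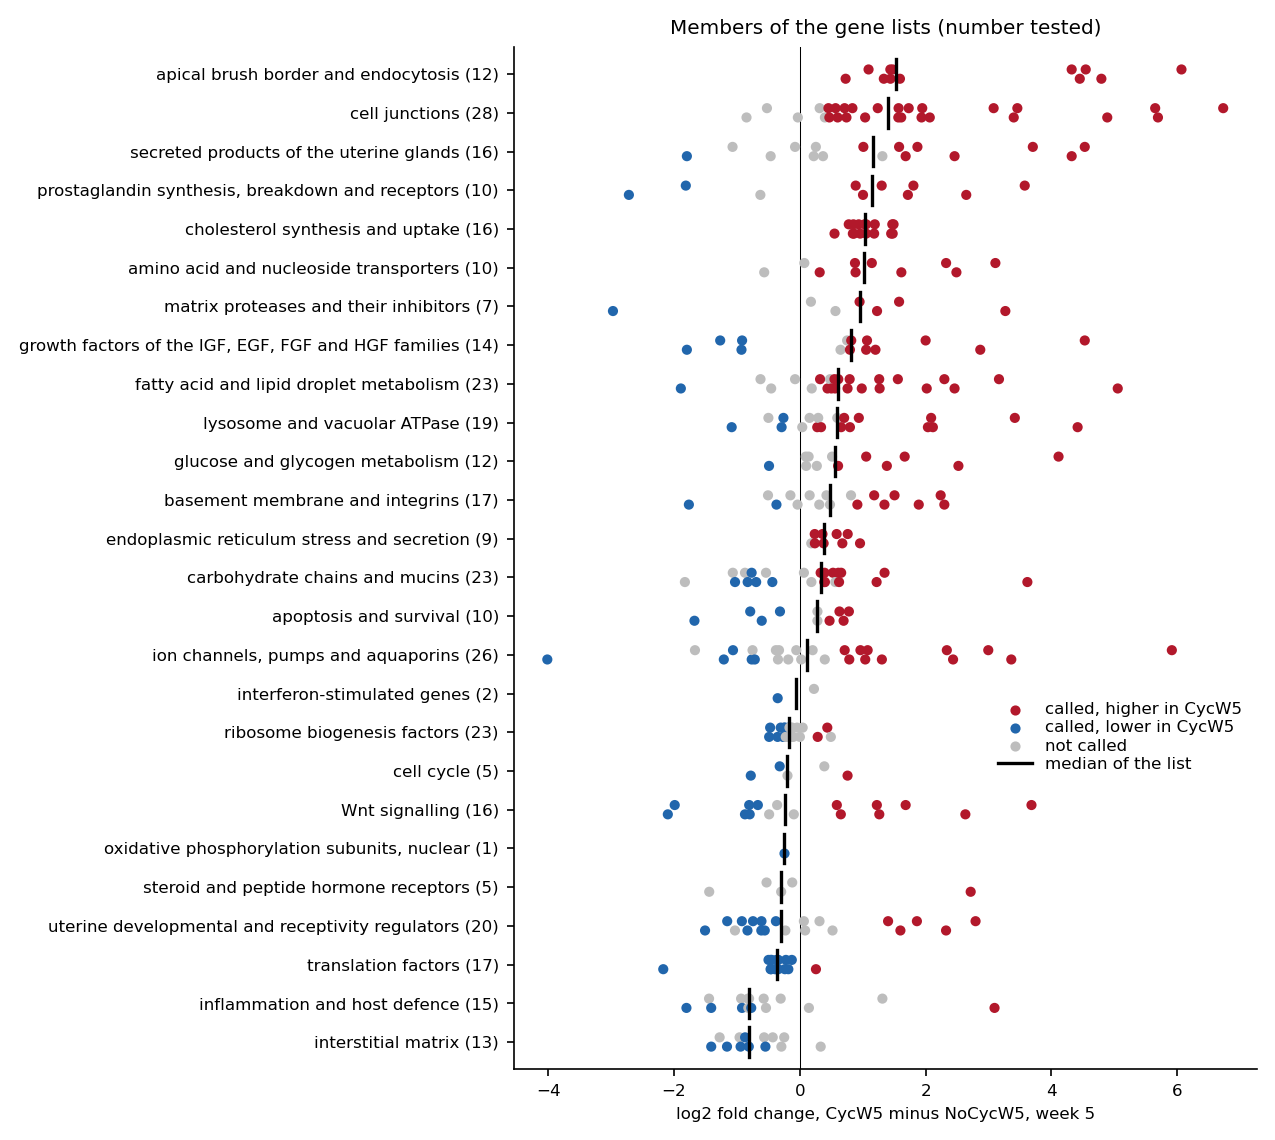
Log2 fold change (CycW5 minus NoCycW5) of each member of the gene lists (points, with DEG in red where higher and blue where lower; black bar: median of the list; number tested in parentheses). All members of the cholesterol and brush border lists lie above 0, and 16 of the 17 translation factors lie below it.

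Wnt signalling genes split, with 7 of 16 higher, 6 lower and 3 not DEG, and a median of -0.23. WNT11 had 2.01 to 58.9 CPM (median 23.05) in CycW5 and 1.05 to 3.86 CPM (median 1.97) in NoCycW5 (log2 fold change 3.68 with a standard error of 0.46, BH P = 2.88e-07). The receptor FZD5 had 3.85 to 23.7 CPM (median 12.3) in CycW5 and 0.832 to 4.698 CPM (median 1.896) in NoCycW5 (log2 fold change 2.63 with a standard error of 0.38, BH P = 1.91e-06). In the other direction, WNT4 had 0.385 to 5.76 CPM (median 1.31) in CycW5 and 2.98 to 11.1 CPM (median 5.96) in NoCycW5 (log2 fold change -1.99, BH P = 0.000863). The receptors FZD2 (-0.8) and ROR2 (-0.87) and the nuclear effectors TCF7L2 and TCF7L1 (-0.67) were lower too. RNF43, which removes Wnt receptors from the surface, rose (log2 fold change 1.23, BH P = 0.00339), and AXIN2, a common transcriptional target of the pathway, had -0.36 and was not a DEG.

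Of the growth factor genes tested, 8 of 14 were higher and 4 were lower, with a median of 0.81. The 8 include IGFBP1, described above, whose CycW5 median lay below the NoCycW5 median. The binding proteins of the insulin-like growth factors moved in opposite directions. IGFBP2 had 15.6 to 233 CPM (median 54.3) in CycW5 and 3.75 to 48.2 CPM (median 14.5) in NoCycW5 (log2 fold change 2.0 with a standard error of 0.49, BH P = 0.00215). IGFBP3 had 46.8 to 232 CPM (median 64.4) in CycW5 and 111 to 599 CPM (median 262) in NoCycW5 (log2 fold change -1.79 with a standard error of 0.38, BH P = 0.000439). AREG (amphiregulin), a ligand of the EGF receptor, had 0.5264 to 24.9 CPM (median 2.11) in CycW5 and 0.213 to 2.17 CPM (median 0.614) in NoCycW5 (log2 fold change 2.87, BH P = 0.00136), and 2.21 (BH P = 0.0103) without CycW5 library 12. The FGF receptors FGFR1 and FGFR2 were both lower (-0.92 and -1.26, BH P = 0.000178 and 0.00131), and so was FGF7, a stromal ligand of FGFR2 (log2 fold change -0.93, BH P = 0.0327). FGF7 lost significance in 6 fits without a single library, with -0.64 (BH P = 0.116) without NoCycW5 library 48.

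Regulators of uterine development and receptivity were higher in 5 of 20 members, lower in 9 and not DEG in 6, with a median of -0.3. FKBP5, a co-chaperone of steroid receptors that is induced by P4 and glucocorticoids, had 52.97 to 364 CPM (median 234) in CycW5 and 50.8 to 114 CPM (median 62.9) in NoCycW5 (log2 fold change 1.86 with a standard error of 0.24, BH P = 4.57e-07). ZBTB16, a zinc finger gene known to respond to the same hormones, had 2.698 to 30.03 CPM (median 17.5) in CycW5 and 0.927 to 8.35 CPM (median 2.93) in NoCycW5 (log2 fold change 2.32, BH P = 9.35e-05). SOX17, a transcription factor of the endometrial epithelium, had 38.03 to 102 CPM (median 86.1) in CycW5 and 12.4 to 41.02 CPM (median 23.5) in NoCycW5 (log2 fold change 1.6, BH P = 3.22e-05). FST (follistatin), an activin antagonist, had 58.03 ± 26.6 CPM in CycW5 and 8.42 ± 4.03 CPM in NoCycW5 (log2 fold change 2.79, BH P = 3.67e-05). All homeobox genes tested of this list (HOXC6, HOXD10, HOXD11, EMX2 and MSX2) were among the 9 lower members. HOXD10 had 26.2 to 112 CPM (median 46.8) in CycW5 and 67.6 to 111 CPM (median 94.7) in NoCycW5 (log2 fold change -0.83, BH P = 0.00136). HOXD11 had 10.8 to 57.3 CPM (median 20.9) in CycW5 and 29.2 to 54.9 CPM (median 45.7) in NoCycW5 (log2 fold change -0.92, BH P = 0.00184). MSX2, HOXC6 and EMX2 had log2 fold changes of -1.15, -0.74 and -0.38 (BH P = 0.0159, 0.0279 and 0.0152). Library 57 had the highest CycW5 value in both HOXD genes. LIF, an implantation cytokine, had 1.55 ± 1.599 CPM in CycW5 and 4.45 ± 2.41 CPM in NoCycW5 (log2 fold change -1.51, BH P = 0.0355), and it lost significance in 10 fits without a single library (BH P of up to 0.0727).

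Of the 13 genes tested of the interstitial matrix, 6 were lower and 7 were not DEG, with a median of -0.81. COL14A1, a collagen that lies along fibrils, had 26.5 to 107 CPM (median 44.9) in CycW5 and 88.2 to 293 CPM (median 127) in NoCycW5 (log2 fold change -1.41 with a standard error of 0.28, BH P = 0.000252). FBLN1, a fibulin bound to elastic fibres, had 419.7 to 1007 CPM (median 753) in CycW5 and 823 to 1348 CPM (median 1116) in NoCycW5 (log2 fold change -0.55 with a standard error of 0.15, BH P = 0.0069), but -0.37 (BH P = 0.0526) with the CycNoP4 libraries counted as CycW5. The abundant proteins FN1 (fibronectin) and TNC (tenascin C) were not DEG, at -0.57 and -1.27, but FN1 was at -0.85 (BH P = 0.0098) without CycW5 library 52. The number of lower members ranged from 2 to 8 over the other fits, and the stromal marker PDGFRA, at -0.07, did not pass the test.

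In the basement membrane list, 7 of 17 members were higher, 2 lower and 8 not DEG, with a median of 0.48. The study listed 7 of the 17 for this comparison. Of the other 10, 1 was higher and 1 lower, with a median of 0.23. The integrin α chain ITGA6, which binds epithelial cells to laminin, had 354 ± 91.01 CPM in CycW5 and 156 ± 34.7 CPM in NoCycW5 (log2 fold change 1.18, BH P = 1.2e-06). ITGA2, a chain of a collagen receptor, had 50.6 ± 25.6 CPM in CycW5 and 13.6 ± 4.82 CPM in NoCycW5 (log2 fold change 1.89, BH P = 7.85e-06). LAMA1, the laminin α1 chain, had 0.732 to 17.2 CPM (median 2.86) in CycW5 and 3.102 to 22.7 CPM (median 15.4) in NoCycW5 (log2 fold change -1.76 with a standard error of 0.44, BH P = 0.00287), whereas LAMA2 had 0.92 (BH P = 0.00691). Of the 7 proteases and inhibitors tested, 4 were higher and 1 was lower. ADAM12, a membrane metalloprotease, had 1.94 to 70.2 CPM (median 25.4) in CycW5 and 0.6204 to 10.7 CPM (median 2.43) in NoCycW5 (log2 fold change 3.27 with a standard error of 0.5, BH P = 5.85e-06). SPINT2, an inhibitor of epithelial serine proteases, had 345 ± 89.4 CPM in CycW5 and 179 ± 33.1 CPM in NoCycW5 (log2 fold change 0.95, BH P = 5.01e-05), and its target ST14 (matriptase) had 1.23. MMP9, a gelatinase, was lower (log2 fold change -2.97, BH P = 0.0432), but -2.08 (BH P = 0.141) without NoCycW5 library 55, and it was not a DEG in 12 other fits that left out a single library. It was at -4.16 (BH P = 0.00771) without CycW5 library 57 and at -1.77 (BH P = 0.188) with the CycNoP4 libraries counted as CycW5.

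Of the 15 genes tested of inflammation and host defence, 1 was higher, 4 were lower and 10 were not DEG, with a median of -0.81. PTX3, a soluble pattern recognition molecule, had 6.05 to 117 CPM (median 19.1) in CycW5 and 0.405 to 14.5 CPM (median 1.85) in NoCycW5 (log2 fold change 3.1 with a standard error of 0.63, BH P = 0.000312). RELB, a subunit of NF-κB, had 16.2 ± 4.27 CPM in CycW5 and 27.8 ± 4.93 CPM in NoCycW5 (log2 fold change -0.77, BH P = 0.0176), and it was at -0.47 (BH P = 0.134) when the CycNoP4 libraries were counted as CycW5. The kinase IKBKE, which acts on the same pathway, had 13.7 ± 4.23 CPM in CycW5 and 25.96 ± 4.58 CPM in NoCycW5 (log2 fold change -0.92, BH P = 0.0192), and -0.69 (BH P = 0.0522) in that fit. CXCL13, a chemokine that attracts B cells, and CFI, a regulator of complement, had log2 fold changes of -1.8 and -1.41 (BH P = 0.0471 and 0.028). They lost significance in 13 and 2 of the fits that left out a single library, with BH P of up to 0.0972 and, without CycW5 library 12, 0.0513. CCL2, IL6, LCN2 and C5 were not DEG, at -0.82, -0.3, -0.81 and -0.82. Over the other fits, 2 to 8 members were lower. Of the interferon genes, only IFNAR1, a receptor chain, and TRIM56 were tested. IFNAR1 had -0.35 (BH P = 0.0389; lost in 11 of the 22 fits that left out a single library, and at -0.06 with the CycNoP4 libraries counted as CycW5) and TRIM56 had 0.23.

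Few cell cycle genes carried a symbol. TK1, a thymidine kinase of the S phase, was higher (log2 fold change 0.76, BH P = 0.000243). GMNN (geminin), which restrains DNA replication, was lower (log2 fold change -0.78, BH P = 0.0128), and so was MCM7, a subunit of the replicative helicase (log2 fold change -0.32, BH P = 0.00965). CDCA7 and CKS1B were not DEG. In GMNN, library 57 had 137 CPM against 39.9 CPM in the next CycW5 library. Of 10 genes of apoptosis and survival, 4 were higher and 4 lower. BCL2L1, an inhibitor of apoptosis, had 108 ± 20.9 CPM in CycW5 and 63.2 ± 8.498 CPM in NoCycW5 (log2 fold change 0.78, BH P = 6.48e-05). AIFM1, the apoptosis-inducing factor of mitochondria, had 82.9 ± 14.4 CPM in CycW5 and 51.4 ± 3.16 CPM in NoCycW5 (log2 fold change 0.7, BH P = 3.07e-06). DAPK1, a death-associated kinase, had 23.2 ± 6.101 CPM in CycW5 and 40.1 ± 15.2 CPM in NoCycW5 (log2 fold change -0.79, BH P = 0.000904).

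Translation factors fell as a group with small changes: 16 of 17 were lower and 1 was higher, at a median of -0.36, and 10 of them were listed by the study. EIF3F, a subunit of the initiation factor that binds the small ribosomal subunit, had 139 ± 17.5 CPM in CycW5 and 192 ± 31.03 CPM in NoCycW5 (log2 fold change -0.46 with a standard error of 0.079, BH P = 4e-05). EIF3H, of the same factor, had 215 ± 23.99 CPM in CycW5 and 274 ± 39.3 CPM in NoCycW5 (log2 fold change -0.34 with a standard error of 0.072, BH P = 0.000464). The elongation factors EEF1B2, EEF1G, EEF1D and EEF2 had log2 fold changes of -0.5, -0.46, -0.37 and -0.36, and EEF1A2, known from muscle and nerve, had -2.17, or -2.86 without CycW5 library 52. EIF2B2 was the member higher in CycW5 (log2 fold change 0.26, BH P = 0.0137), and 0.2 (BH P = 0.062) without CycW5 library 70. Ribosome biogenesis factors were lower in 9 of 23 members, higher in 2 and not DEG in 12, with a median of -0.16. NOP53, a nucleolar assembly factor, had 119.5 ± 20.7 CPM in CycW5 and 166 ± 24.2 CPM in NoCycW5 (log2 fold change -0.47, BH P = 0.00055). POLR1E, a subunit of RNA polymerase I, had 23.6 ± 4.22 CPM in CycW5 and 30.3 ± 3.96 CPM in NoCycW5 (log2 fold change -0.35, BH P = 0.0024). IMP3, of the small subunit processome, rose (log2 fold change 0.44, BH P = 6.83e-05), while FBL (fibrillarin) was not a DEG, at -0.22.

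The CycNoP4 libraries were compared with both groups in a fit of the 26 libraries of week 5, so that these comparisons share libraries with each other and with the one above. Of the 15738 genes tested, 17.7% were DEG against CycW5 and 14.7% against NoCycW5 (27.4% and 15.8% of the 2245 genes with a symbol). Cholesterol genes were higher than in NoCycW5 in 15 of 16 members (median 1.19; 8.87% of all genes were higher), and 2 were lower than in CycW5 (median 0.11). MSMO1 had 334, 480.4, 197 and 96.1 CPM in the 4 libraries, and the lowest of them lay within the NoCycW5 range. PTGS2 had 511, 99.995, 14.3 and 19.9 CPM in the 4 CycNoP4 libraries and was higher than in NoCycW5 (log2 difference 2.68, BH P = 0.0203), although 2 of the 4 values lay within the NoCycW5 range. Its difference from CycW5 was 0.02 (BH P = 0.987). IGFBP2, at 511, 77.7, 175 and 31.6 CPM, was higher than in NoCycW5 as well (log2 difference 3.26, BH P = 0.00405).

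The lysosomal gene GM2A, the brush border gene PDZK1 and the genes SUSD2 and FKBP5 were lower in CycNoP4 than in CycW5. GM2A had 38.7, 28.5, 26.5 and 44.05 CPM (log2 difference -3.2, BH P = 0.000224). PDZK1 had 15.9, 21.5, 66.7 and 13.4 CPM (log2 difference -3.74, BH P = 0.00225). SUSD2 had 9.78, 2.64, 4.49 and 9.398 CPM (log2 difference -3.73, BH P = 0.000653). The steroid-responsive gene FKBP5 had 89.1, 90.4, 72.3 and 59.8 CPM (log2 difference -1.69, BH P = 0.00132). Of the 28 junction genes, 10 were lower and 2 higher than in CycW5, and 11 were higher than in NoCycW5. Of the 12 brush border genes, 4 were lower than in CycW5 and 5 higher than in NoCycW5. These counts are to be read against 9.00% of all genes and 19.3% of genes with a symbol lower than in CycW5 (8.70% and 8.15% higher), and 8.87% and 12.8% higher than in NoCycW5. The summed epithelial markers were at 452 to 752 CPM in CycNoP4, above the 220 to 422 CPM of NoCycW5 in all 4 libraries, and 2 of the 3 markers were DEG (median log2 difference 0.88). Against CycW5 their median log2 difference was 0.14, and the part of the markers in these counts was not tested.

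Matrix genes and OXTR were higher in CycNoP4 than in CycW5. Of the 13 interstitial matrix genes, 8 were higher and 1 lower there (median 1.15; 8.70% of all genes were higher and 9.00% lower), against 1 higher and 1 lower than in NoCycW5 (median 0.10; 5.86% of all genes were lower). OXTR had 247.2, 277, 172 and 120.01 CPM and was higher than in CycW5 (log2 difference 2.17, BH P = 0.00207), with a log2 difference of 0.74 from NoCycW5 (BH P = 0.234). AOX1 (log2 difference 2.12, BH P = 0.00166), PTGES (log2 difference 1.68, BH P = 0.0051), A4GALT (log2 difference 1.76, BH P = 0.00128) and IGFBP3 (log2 difference 1.67, BH P = 0.00854) were higher than in CycW5 too. Ribosome biogenesis factors were higher than in CycW5 in 10 of 23 members and lower in 1, with a median of 0.39.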

How the data were processed

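Poly(A) RNA of endometrial biopsies was sequenced from stranded libraries as single-end reads. Per the study's methods, the authors used HISAT2 for alignment to the cattle genome (UMD3.1) and FeatureCounts for counting over Ensembl genes. The deposited values are raw counts of 18830 genes in 50 libraries, without normalization. Sample grouping was taken from the labels.

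From these counts, genes were filtered with filterByExpr, normalized by TMM and tested in edgeR 4.0.16 (R 4.3.3) with the robust quasi-likelihood test over 43 libraries, as 4 group means (CycW5 and NoCycW5 at week 5 and week 9). Standard errors came from the fitted model. The 26 libraries of week 5 were fitted as 3 group means for the CycNoP4 comparisons. The plot of named genes shows log2(CPM + 0.5). The alternatives were DESeq2 1.42.0 (size factors and Wald test), limma 3.58.1 (voom, also with quality weights for libraries), a fit of unfiltered genes, a filter at 1 CPM in at least 10 libraries, the 22 compared libraries alone, CycNoP4 counted as CycW5, and leaving out each library. On simulated counts of this comparison, edgeR recovered 73 of 100 genes changed 2-fold and 89 of 100 changed 4-fold. There were 4 false calls among 15263 genes. Far fewer genes were changed in the simulation than the 4119 DEG of the data. The recovered shares and the false calls therefore cannot be carried over to the DEG reported here. Among the week 5 libraries, the smallest mean chi-square per gene over 325 pairs was 44.5, where sampling noise gives 1. No pair was thus the same library sequenced again, but separate libraries of the same cow could not be recognised in this way.

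Symbols came from the study's supplementary tables and RefSeq accessions, which name 2344 of the 2729 genes listed there. Named genes were, outside ribosomal proteins and genes named in the paper, the 6 with the smallest BH P and the 4 with the largest change at 1 CPM or more in each direction, and up to 3 DEG per list (the 2 smallest BH P in the direction with more DEG and the smallest in the other), with ESR1 and OXTR. Some genes that the rule would name are not reported here. Where a list had no DEG, its most abundant member was named. The 26 gene lists and 11 marker lists were written, and members chosen, with earlier results of these data known. Strand was kept by the kit, but whether counting used it is not given in the sources used here. Cow identity, batches, promoter sequences and gene length were not analysed here.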

Additional observations from a re-analysis of the deposited data

Results flagged for a closer look

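For each named gene, the highest and the lowest library of the CycW5 (10 libraries) and CycNoP4 (4 libraries) groups were compared with the spread of their group by Dixon's criterion, and 26 of 164 pairs of gene and group held a library far from the others. Chance gives about 1 in 20 for independent sets of normally distributed values. The criterion was applied to CPM, which need not be normally distributed, and the pairs share libraries. The number of flags can therefore not be held against that rate. The NoCycW5 group was not examined in this way, as it holds more than 10 libraries.

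CycW5 library 57 was the source of 15 of these values, as the highest library in 14 and the lowest in 1. All 14 of these genes had a negative log2 fold change (OXTR was not a DEG), so that the value lay toward the NoCycW5 libraries. These values were 24.6 CPM for CADM1 (next library 14.8), 325 for AOX1 (169.9), 5.49 for RHCG (0.819) and 1.88 for CRHR1 (0.0966). They were 8.72 CPM for PTGES, 232 for IGFBP3, 112 for HOXD10, 57.3 for HOXD11, 17.2 for LAMA1 and 10.6 for MMP9. Further values were 137 CPM for GMNN, 27.6 for RELB, 24.7 for IKBKE and 151 for OXTR (next library 50.4). In AIFM1, which was higher in CycW5, library 57 was the lowest, with 50.04 CPM against 73.3 CPM in the next. The other CycW5 libraries that stood out were library 12 for PTX3 (117 CPM) and library 70 for PLA2G4A (219.7 CPM) and SLC5A1 (72.0 CPM).

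Among the 4 CycNoP4 libraries, library 51 was the highest in 5 genes, with 0.0761 CPM for PRG3 (the other libraries at 0), 8.37 for GJB5 (next 0.198), 595 for IGFBP3 (213), 13.6 for AREG (0.991) and 50.02 for RELB (24.5). Library 58 was the highest in PLIN4, with 18.2 CPM (next 1.99), and in PDZK1, with 66.7 CPM (21.5). Library 56 was the lowest in FBLN1, with 835 CPM against 1162 CPM in the next.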

How the results depend on the processing

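The number of DEG (4119), of DEG higher (2359) and lower (1760) in CycW5 and of DEG with at least a 2-fold difference (1132) stayed within 1.5 times under all alternatives, with 1 exception: limma-voom with library quality weights gave 3158 lower DEG beside 2886 higher, so that 47.7% of the DEG were higher in CycW5, against 57.3% in the edgeR fit. Leaving out a single library gave 3344 to 4959 DEG, 2042 to 2569 higher, 1290 to 2390 lower and 987 to 1455 with at least a 2-fold difference, and the extremes of the total were reached without CycW5 library 12 and without CycW5 library 57. Over the named genes, 631 of the values from other settings kept direction and side of the threshold, 21 fell below it and 3 passed it (all OXTR), while leaving out a library gave 1752, 51 and 1. No direction of a named gene was reversed in these fits. Counting the CycNoP4 libraries as CycW5 ended the most calls, 11. The cause of these changes was not tested. No paired analysis was possible because the labels do not link libraries to cows and the replicate numbers only follow the order of deposit. With 24235270 reads or more per compared library, depth limits only genes of low abundance, such as PRG3.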

Other observations

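Genes outside the lists were also among those whose CycW5 and NoCycW5 libraries did not overlap, and the following were chosen after their values were seen. F10, the coagulation factor X, had 18.03 to 110.4 CPM (median 57.9) in CycW5 and 1.23 to 15.9 CPM (median 6.301) in NoCycW5 (log2 fold change 3.2, BH P = 3.17e-06, edgeR quasi-likelihood test). ZNF750, a zinc finger regulator of epithelial differentiation, had 4.25 to 26.98 CPM (median 15.3) in CycW5 and 0.499 to 3.92 CPM (median 3.04) in NoCycW5 (log2 fold change 2.25, BH P = 3.76e-06). SMPD3, a sphingomyelinase that forms ceramide, had 4.24 to 15.4 CPM (median 7.54) in CycW5 and 1.299 to 3.74 CPM (median 3.101) in NoCycW5 (log2 fold change 1.56, BH P = 2.61e-05). CDCP1, a transmembrane substrate of Src kinases, had 19.7 to 57.1 CPM (median 39.3) in CycW5 and 8.11 to 17.98 CPM (median 14.2) in NoCycW5 (log2 fold change 1.44, BH P = 1.05e-05). Differences of small size also separated the groups. IKBKG, the regulatory subunit of the IκB kinase, had 23.6 to 30.9 CPM (median 25.7) in CycW5 and 18.5 to 22.99 CPM (median 21.9) in NoCycW5, with a log2 fold change of 0.3 (BH P = 0.000807). GPHN (gephyrin), which anchors receptors and makes the molybdenum cofactor used by aldehyde oxidases, had 35.3 to 63.9 CPM (median 51.1) in CycW5 and 22.6 to 33.4 CPM (median 24.4) in NoCycW5 (log2 fold change 0.94, BH P = 2.25e-06), whereas AOX1 was lower in CycW5 (log2 fold change -1.87).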
